A study of Mus musculus with 6 samples.

Results

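Gldn, Nfasc, Nrcam, Cadm1, Cadm2, Cadm3, Cadm4, Epb41l3 and Mpdz encode adhesion molecules, and scaffold proteins attached to them, of the contact between axons and Schwann cells. The 9 genes were chosen by symbol, with earlier results of these data known, and each was found in all 6 libraries, among 41605 genes listed. In a myelinated fibre the Schwann cell touches its axon at the node of Ranvier, where microvilli meet the gap in the myelin, at the flanking paranodes, and along the internode. Gliomedin (Gldn) is secreted onto the microvilli and gathers the axonal proteins neurofascin and NrCAM, and with them the sodium channels, at the node. Neurofascin (Nfasc) has an axonal isoform at the node and a glial isoform that seals the paranode. The Cadm genes encode nectin-like adhesion molecules of the immunoglobulin superfamily, of which Cadm4 on the Schwann cell binds axonal partners of the same family along the internode.

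Sciatic nerves of mice were dissociated at postnatal day 1 (P1) and day 60 (P60), and 3 libraries per age, each from its own pooled suspension of male and female animals, were made with the 10x Genomics kit that reads the 3′ end of transcripts and counts molecules by unique molecular identifiers (UMIs). All animals of both ages were C57bl/6J mice with a Cre transgene active in Schwann cells, a YFP reporter that Cre switches on there, and DsRed in every cell type. No animal carried a deletion. DsRed-positive cells were sorted, and at P1 a part of the YFP-positive Schwann cells was removed in the sort, so cell shares of Schwann cells are set by it. The cell bodies of the axons lie outside the nerve, and neuronal markers summed to at most 28.0 CPM (UMIs per 1000000) in the named Schwann states, so the axonal partners in neurons were not measured. A read at the 3′ end cannot tell the axonal from the glial isoform of Nfasc.

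Across the series 3435 to 4586 cells per library were kept, with 20203440 to 30334608 UMIs in a library and a median of 3627 to 6840 UMIs per cell. P60 replicate 3 stood apart. In it 16.2% of cells had over 10% mitochondrial counts, against 2.97% and 4.84% in the other P60 libraries, and it held 100 of the 158 non-myelinating Schwann cells. Pairs of libraries shared 13 to 32 cell barcodes, at most 0.932% of the smaller library. No batch is given in the labels, and since the 2 ages share no library, an effect of age cannot be told apart from one of library preparation. Doublets were not removed in the values below.

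Schwann cells, 2902 at P1 and 350 at P60, were divided into states by clusters made without these 9 genes or 35 other genes of the axon-glia junction, and a state was named from its markers, so each name means cells like that state. At P1 the immature cells (568) carried Ngfr, Ncam1, L1cam and Cdh2, with the stress genes Atf3 and Socs3 among their leading genes. The promyelinating cells (592) carried Pou3f1, Cdkn1c and Egr2, and the myelinating cells (493) all 9 markers of myelin synthesis. A sub-cluster of 559 cells held markers of both last states and stayed unnamed, as did 290 cells with S-phase genes, and 400 cells were proliferating. At P60 there were 147 myelinating and 158 non-myelinating cells, the latter with Ncam1, L1cam, Scn7a and Cdh2, and 45 cells without a name. Clusters that mixed Schwann and fibroblast markers (95 cells at P1, 65 at P60) were left out, as was a P1 cluster of 196 Schwann-like cells with 19.1% mitochondrial counts.

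By the GENCODE M21 annotation of GRCm38, Gldn (ENSMUSG00000046167) lies at chr9:54286486-54341786 on the plus strand. Nfasc (ENSMUSG00000026442) lies at chr1:132564690-132741797 on the minus strand and Nrcam (ENSMUSG00000020598) at chr12:44328885-44601964 on the plus strand. The Cadm genes lie apart from each other. Cadm1 (ENSMUSG00000032076) is at chr9:47530173-47857637 (plus), Cadm2 (ENSMUSG00000064115) at chr16:66655421-67620908 (minus), Cadm3 (ENSMUSG00000005338) at chr1:173333258-173367695 (minus) and Cadm4 (ENSMUSG00000054793) at chr7:24482023-24504539 (plus). Epb41l3 (ENSMUSG00000024044) is at chr17:69075683-69289989 (plus) and Mpdz (ENSMUSG00000028402) at chr4:81278500-81442815 (minus). Cadm3 overlaps the protein-coding gene Ackr1 on its own strand and Aim2 on the other, and Gldn, Nfasc, Cadm2 and Epb41l3 have annotated antisense genes. Whether the counting used the strand is not given in the sources used here, so their reads cannot be set apart. Of the 9 genes, Cadm4 alone overlapped no other annotated gene.

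The 250 bases before the start of Gldn, Cadm3 and Cadm4, the nodal gene and the Cadm pair whose levels moved apart between the Schwann states below, are printed from RefSeq (GRCm38.p6, strand of the gene) to show what lies before genes whose levels differed between states. The Gldn stretch is chr9:54286236-54286485, that of Cadm3 chr1:173367696-173367945 and that of Cadm4 chr7:24481773-24482022. Capitals mark a SOX motif, the only motif found in them.
Gldn: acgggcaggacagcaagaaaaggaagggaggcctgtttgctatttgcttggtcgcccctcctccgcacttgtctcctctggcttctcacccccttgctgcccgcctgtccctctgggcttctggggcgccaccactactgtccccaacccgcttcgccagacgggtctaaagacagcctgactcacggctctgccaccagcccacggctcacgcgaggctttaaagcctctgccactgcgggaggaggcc
Cadm3: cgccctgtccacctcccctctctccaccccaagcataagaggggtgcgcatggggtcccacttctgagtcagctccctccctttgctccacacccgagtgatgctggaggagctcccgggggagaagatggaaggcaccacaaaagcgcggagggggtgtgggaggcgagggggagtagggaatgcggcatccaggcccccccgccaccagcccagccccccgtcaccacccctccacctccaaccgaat
Cadm4: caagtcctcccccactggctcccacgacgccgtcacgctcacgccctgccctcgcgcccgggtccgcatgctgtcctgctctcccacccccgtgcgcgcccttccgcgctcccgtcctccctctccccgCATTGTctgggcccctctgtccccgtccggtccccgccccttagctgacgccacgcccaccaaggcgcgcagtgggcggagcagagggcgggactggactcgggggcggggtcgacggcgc
Both strands were searched for the SOX motifs ACAAAG and ACAATG, the letters that Sox10-type factors read, and for the EGR motif GCGNGGGCG, which Egr2-type factors read, and a single match in these stretches left no overlap between motifs. The Cadm4 stretch held 1 ACAATG, written here as its complement on the minus strand, starting 121 bases before the gene. Of 32851 promoters of the same length in the table, 10.7% held ACAATG, 16.5% ACAAAG and 4.70% the EGR motif. No match was found in the stretches of Gldn, Cadm3, Nrcam, Cadm2 or the 2 of Nfasc, and 1 ACAATG in the third start of Epb41l3. Cadm1 and Mpdz were not matched in the table.

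Levels are given as CPM, the UMIs of a gene scaled to 1000000 UMIs of all cells of a group in 1 library, in the order of replicates 1, 2 and 3. Tests compare libraries, by edgeR's quasi-likelihood test on summed counts, with p-values adjusted by Benjamini-Hochberg over all genes tested in that comparison, and a gene is called at an adjusted p under 0.05. Fold changes are on the log2 scale ± SE. Values within an age compare states of the same 3 libraries and those between ages compare 3 libraries with 3. The fit takes its estimate of the spread from all genes, so a very small p rests on that shared estimate.

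Of the nodal genes, Gldn was near absent from immature Schwann cells at P1 and among the leading genes of myelinating ones. Its level in immature cells was 1.18, 0 and 0 CPM, which is 1 UMI in all 3 libraries, and in promyelinating cells 4.62, 6.71 and 1.51. In the unnamed cells between promyelinating and myelinating it was 66.8, 68.2 and 53.1, and in myelinating cells 171, 195 and 189. No library of one of these groups overlapped the next. Gldn rose by 5.61 ± 0.19 from promyelinating to myelinating cells (adjusted p = 4.54e-50). From immature to promyelinating cells, with 1 against 16 UMIs, the ratio of levels was 11.6 with a 95% counting interval of 1.80 to 487 (adjusted p = 0.005). That call was lost with DESeq2 (adjusted p = 0.0966) and without P1 replicate 2 (adjusted p = 0.187). Proliferating cells had no Gldn UMI in any library, which allows up to 3 UMIs in each.

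At P60 Gldn again separated the states. It stood at 209, 162 and 162 CPM in myelinating cells and at 14.0, 0 and 20.9 in non-myelinating cells, and was 3.60 ± 0.48 higher in myelinating cells on the log2 scale (adjusted p = 5.74e-05; 4.64 without P60 replicate 3). Between the ages the level in myelinating cells differed by -0.03 ± 0.17 (95% interval -0.36 to 0.30, adjusted p = 0.921), and the ranges overlapped. Over all Schwann cells Gldn rose from 50.4, 58.1 and 52.8 CPM at P1 to 124, 99.2 and 93.0 at P60, by 0.87 ± 0.18 (adjusted p = 0.0012). Myelinating cells were 493 of 2902 Schwann cells at P1 and 147 of 350 at P60, and the part of this make-up in the rise was not tested beyond the values within the state.

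Nfasc at P1 was also highest in myelinating cells, at a lower level than Gldn. It was 1.18, 3.22 and 1.06 CPM in immature cells, 0.924, 0 and 1.51 in promyelinating cells and 45.3, 30.2 and 39.6 in myelinating cells, which overlapped no other state. The rise from promyelinating to myelinating cells was 5.58 ± 0.40 (adjusted p = 7.18e-24; 6.34 without P1 replicate 3), whereas immature and promyelinating cells differed by -1.04 ± 0.94 (adjusted p = 0.46). At P60 the myelinating cells had 90.6, 56.3 and 108 CPM. In non-myelinating cells 14.0, 56.5 and 41.8 CPM were measured, where replicate 2 reached the lowest myelinating value. The difference, 1.34 ± 0.48 (adjusted p = 0.0462), was not called by DESeq2 (adjusted p = 0.398) or with scaling by library size alone (adjusted p = 0.0773). From P1 to P60 Nfasc rose by 1.21 ± 0.31 within myelinating cells (adjusted p = 0.0066), a call lost without P60 replicate 3 (adjusted p = 0.111). In all Schwann cells it went from 11.3, 8.77 and 10.9 to 64.0, 42.5 and 66.1 CPM, by 2.43 ± 0.27 (adjusted p = 5.64e-06).

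Of these 3 nodal genes, Nrcam was the one not called higher at P60 over all Schwann cells. At P1 it was 14.2, 18.2 and 25.5 CPM in immature cells, 28.6, 39.5 and 21.9 in promyelinating cells and 76.8, 78.5 and 97.5 in myelinating cells. Only the immature and promyelinating values overlapped. The step to myelinating cells was 1.69 ± 0.15 (adjusted p = 7.64e-18), and the earlier step 0.67 ± 0.24 (adjusted p = 0.0273), which was lost with DESeq2 (adjusted p = 0.178) and without P1 replicate 1 (adjusted p = 0.202) or 2 (adjusted p = 0.501). In myelinating cells of P60 the level was 41.8, 42.2 and 42.0 CPM, below every P1 library, a fall of 0.97 ± 0.30 (log2 change -0.97, adjusted p = 0.0212) that missed the threshold without P1 replicate 3 (adjusted p = 0.0583). Non-myelinating cells held 28.0, 0 and 0 CPM, 2 UMIs against 19 in myelinating cells, too few to enter the test; the ratio of levels was 7.01 with a counting interval of 1.69 to 62.1. Over all Schwann cells the levels were 39.8, 42.4 and 45.5 at P1 and 32.0, 31.9 and 36.7 at P60, a difference of -0.40 ± 0.24 (adjusted p = 0.205). When cells were scaled to 100000 before clustering it was -1.20 and was called (adjusted p = 0.00172).

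**Figure D1:**
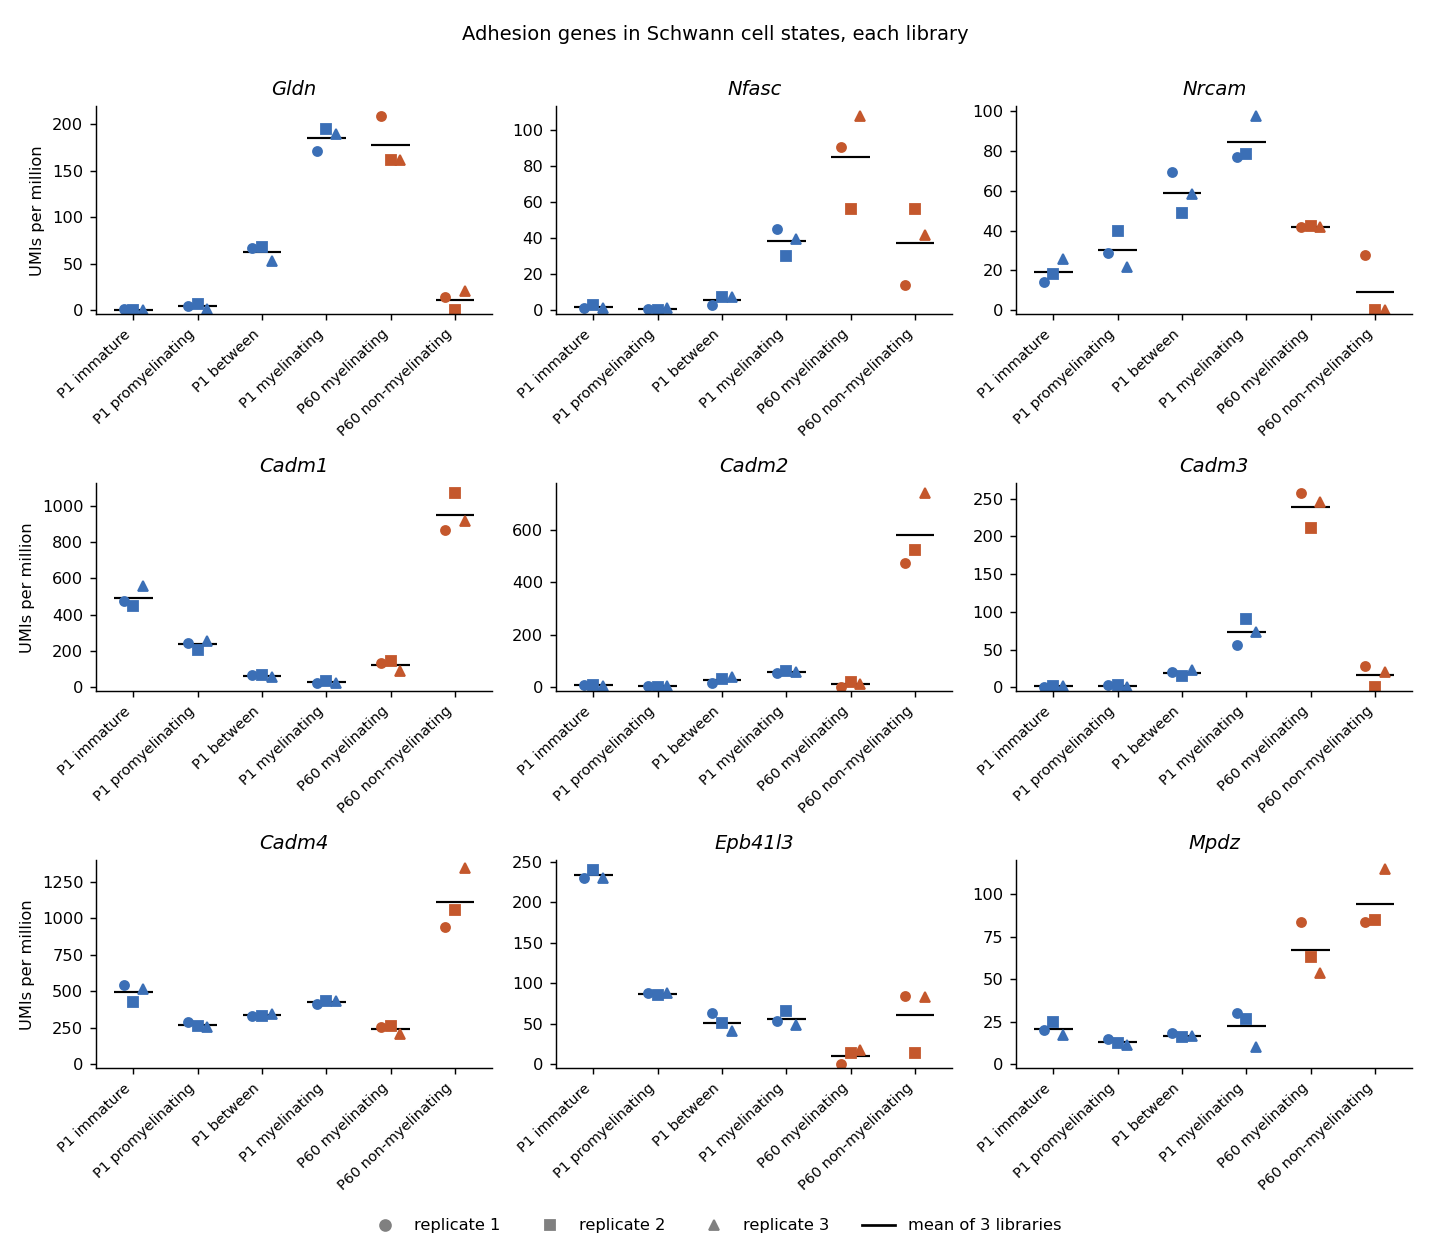
Levels of the 9 genes in the named Schwann states, on linear axes of UMIs per 1000000 that start at 0 and differ between genes, with 1 point per library and a line at the mean of the 3 libraries; the unnamed P1 cells between promyelinating and myelinating are included. Gldn and Cadm3 are highest in the myelinating states of both ages, Cadm1 is lowest in P1 myelinating cells, and Cadm2 is at 475 to 742 CPM in P60 non-myelinating cells and at most 63.3 CPM in the others.

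The Cadm family divided into genes that were high in myelinating cells and genes that were high elsewhere, and Cadm2 changed sides between the ages. At P1 Cadm1 fell from 473, 448 and 556 CPM in immature cells through 244, 208 and 257 in promyelinating cells and 70.4, 68.2 and 55.7 in the unnamed cells between to 26.7, 33.8 and 25.2 in myelinating cells, with no overlap at any step. The first step was -1.01 ± 0.07 (adjusted p = 4.66e-26) and the step from promyelinating to myelinating -2.84 ± 0.12 (adjusted p = 1.64e-42). Proliferating cells lay at 445, 492 and 435 CPM, close to immature cells. P60 kept the direction: 132, 148 and 89.9 CPM in myelinating against 867, 1073 and 914 in non-myelinating cells, a difference of -2.83 ± 0.20 (adjusted p = 2.09e-07). Cadm1 rose with age in myelinating cells by 2.12 ± 0.27 (adjusted p = 1.41e-05) and between P1 immature and P60 non-myelinating cells by 0.95 ± 0.13 (adjusted p = 1.9e-06). The rise in myelinating cells was not shared by all of them. The P60 sub-cluster led by Emid1, at 281, 234 and 149.8 CPM, lay above every P1 library of myelinating cells, and the one led by Spp1, at 0, 17.6 and 25.0, lay below them.

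Cadm2 rose with myelination at P1 and stood on the other side at P60. The P1 levels were 9.48, 7.50 and 6.38 CPM in immature cells, 6.47, 2.24 and 4.54 in promyelinating cells and 56.6, 63.3 and 58.7 in myelinating cells. The step from promyelinating to myelinating was 3.97 ± 0.25 (adjusted p = 6.78e-28). At P60 myelinating cells held 0, 21.1 and 12.0 CPM and non-myelinating cells 475, 522 and 742, far apart and without overlap, a difference of -5.49 ± 0.38 (adjusted p = 1.69e-07), or -6.30 without P60 replicate 2. With age Cadm2 fell by 2.38 ± 0.50 (log2 change -2.38) in myelinating cells (adjusted p = 0.00167), or by 3.25 without P60 replicate 2 (log2 change -3.25). The call was lost when states were drawn from summed marker levels in place of clusters (adjusted p = 0.0704). From P1 immature to P60 non-myelinating cells it rose by 6.32 ± 0.27 (adjusted p = 6.69e-16). The difference between the state effects of the ages, P60 myelinating against non-myelinating minus P1 myelinating against immature, was -8.62 ± 0.44 (adjusted p = 7.41e-83), and -9.41 without P60 replicate 2. Immature and non-myelinating cells are different states, so this compares the nearest named pair of each age.

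Cadm3 was, with Gldn, the member most closely tied to the myelinating states. It was 0, 2.14 and 2.13 CPM in immature cells, 2.77, 3.73 and 0.757 in promyelinating cells, 20.1, 15.3 and 22.9 in the unnamed cells between and 56.6, 90.0 and 73.0 in myelinating cells at P1. The myelinating values exceeded all others, and the step from promyelinating cells was 5.09 ± 0.27 (adjusted p = 7.31e-34). At P60 it reached 258, 211 and 246 CPM in myelinating cells against 28.0, 0 and 20.9 in non-myelinating cells, a difference of 3.81 ± 0.42 (adjusted p = 1.08e-05). Within myelinating cells Cadm3 rose with age by 1.73 ± 0.21 (adjusted p = 7.36e-06). The Spp1-led P60 cells lay above every P1 library, at 435, 405 and 399.9 CPM, whereas the Emid1-led cells, at 59.2, 82.1 and 104, overlapped the P1 range.

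Cadm4, the glial internodal receptor, was abundant in every Schwann state. Its P1 levels were 543, 429.9 and 518 CPM in immature cells, 290.1, 263 and 257 in promyelinating cells and 416, 430.4 and 433 in myelinating cells, so the promyelinating cells were the low point. It fell by 0.83 ± 0.07 (log2 change -0.83, adjusted p = 4.18e-21) and rose again by 0.87 ± 0.06 (adjusted p = 4.82e-24). Myelinating and immature cells differed by 0.04 ± 0.06 (95% interval -0.08 to 0.15, adjusted p = 0.667), and this sign depended on the scaling: with library size alone the difference was -0.22 (adjusted p = 0.000917). At P60 the non-myelinating cells, at 937, 1059 and 1342 CPM, lay above the myelinating cells at 258, 260.5 and 209.8, with a log2 difference of -2.08 ± 0.20 for myelinating cells (adjusted p = 2.44e-06). With age it fell by 0.78 ± 0.14 in myelinating cells (log2 change -0.78, adjusted p = 0.000373) and rose by 1.24 ± 0.14 from immature to non-myelinating cells (adjusted p = 1.14e-07). Of the P60 myelinating cells the Emid1-led ones, at 73.9, 70.3 and 92.2 CPM, lay below every P1 library, and the Spp1-led ones, at 422, 546 and 337, overlapped the P1 range. Over all Schwann cells 395, 381 and 408 CPM at P1 and 444, 436 and 749 at P60 differed by 0.42 ± 0.17 (adjusted p = 0.0664), where P60 replicate 3, the library with the most non-myelinating cells, was the highest. It was called under 6 alternatives, with adjusted p-values of 0.0234 to 0.0443.

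Of the 2 scaffold genes, Epb41l3, which encodes a linker between membrane proteins and the actin and spectrin skeleton, fell early. It stood at 229.9, 240.1 and 229.6 CPM in immature cells, 87.8, 85.0 and 87.8 in promyelinating cells and 53.4, 66.2 and 49.1 in myelinating cells at P1, in 3 separate ranges. The first step was -1.38 ± 0.10 (adjusted p = 9.81e-24). The second, -0.43 ± 0.13 (adjusted p = 0.00375), was not called by DESeq2 (adjusted p = 0.0694) or without P1 replicate 3 (adjusted p = 0.105). It changed sign with a second clustering seed and with states drawn from summed marker levels. At P60 it was 0, 14.1 and 18.0 CPM in myelinating and 83.9, 14.1 and 83.6 in non-myelinating cells, a difference of -2.23 ± 0.82 (adjusted p = 0.0511) that was called under 7 alternatives, among them the one without replicate 2 (adjusted p = 0.00129). With age it fell in myelinating cells by 2.29 ± 0.54 (log2 change -2.29, adjusted p = 0.00386; -3.03 without P60 replicate 3).

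Mpdz encodes a scaffold with many PDZ domains. Its P1 levels were 20.1, 24.7 and 17.0 CPM in immature cells, 14.8, 12.7 and 11.4 in promyelinating cells and 29.9, 26.6 and 10.2 in myelinating cells, where replicate 3 lay below the other states. Myelinating exceeded promyelinating cells by 0.96 ± 0.25 (adjusted p = 0.00112), a call lost with DESeq2 (adjusted p = 0.0952) and without P1 replicate 2 (adjusted p = 0.0673). At P60 the values were 83.6, 63.4 and 54.0 in myelinating and 83.9, 84.7 and 115 in non-myelinating cells, a difference of -0.46 ± 0.37 (adjusted p = 0.383). The larger difference was with age, 1.63 ± 0.45 in myelinating cells (adjusted p = 0.0107; 0.0691 without P60 replicate 1) and 2.31 ± 0.35 from immature to non-myelinating cells (adjusted p = 1e-05).

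Counted over the 9 genes, 5 were called between promyelinating and immature cells at P1, 2 higher (Gldn, Nrcam) and 3 lower (Cadm1, Cadm4, Epb41l3), where 27.7% of all genes tested were called. Between myelinating and promyelinating cells all 9 were called, 7 higher and 2 lower (Cadm1, Epb41l3), beside 39.0% of all genes. Between myelinating and immature cells 7 were called, 5 higher and 2 lower, beside 43.6%, with a median log2 difference of 2.36 over the 9 genes and -0.02 over all genes. At P60 myelinating and non-myelinating cells differed in 6 of the 8 members tested, 3 in each direction (Gldn, Nfasc and Cadm3 higher, Cadm1, Cadm2 and Cadm4 lower), beside 33.9%. Within myelinating cells 8 of 9 were called between the ages, 4 higher (Nfasc, Cadm1, Cadm3, Mpdz) and 4 lower (Nrcam, Cadm2, Cadm4, Epb41l3), beside 28.8% of all genes. Without P1 replicate 3 only 7 members passed the filter on low counts, with Cadm2 and Epb41l3 left out, and 5 were called. Nrcam then lost its call (adjusted p = 0.0583). From P1 immature to P60 non-myelinating cells the 5 members that passed the filter on low counts were all called, 4 higher and Epb41l3 lower, beside 35.4%. A member that passed the filter only through the group where it is high had to differ, so this count carries no weight of its own. The same limit holds for the other counts and medians in this report wherever a gene had few UMIs in a compared group. At P1, for instance, Nfasc had 3 UMIs in promyelinating and 156 in myelinating cells. At P60 Cadm2 had 5 in myelinating and 213 in non-myelinating cells. The difference of the state effects was called for 5 of 9 members, 1 higher (Cadm1, 1.14 ± 0.28, adjusted p = 0.000914) and 4 lower, beside 8.80% of all genes. Gldn (-4.79 ± 1.18, adjusted p = 0.00125) and Nfasc (-2.98 ± 0.76, adjusted p = 0.00191) were among the lower ones but were not called without P60 replicate 3 (adjusted p = 0.439 and 0.0622). The difference was called for 3 members without P60 replicate 3, beside 454 genes in all. It was also called for 3 with states drawn from summed marker levels, beside 514 genes. There Cadm1 (adjusted p = 0.724) and Nfasc (0.191) were no longer called.

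**Figure D2:**
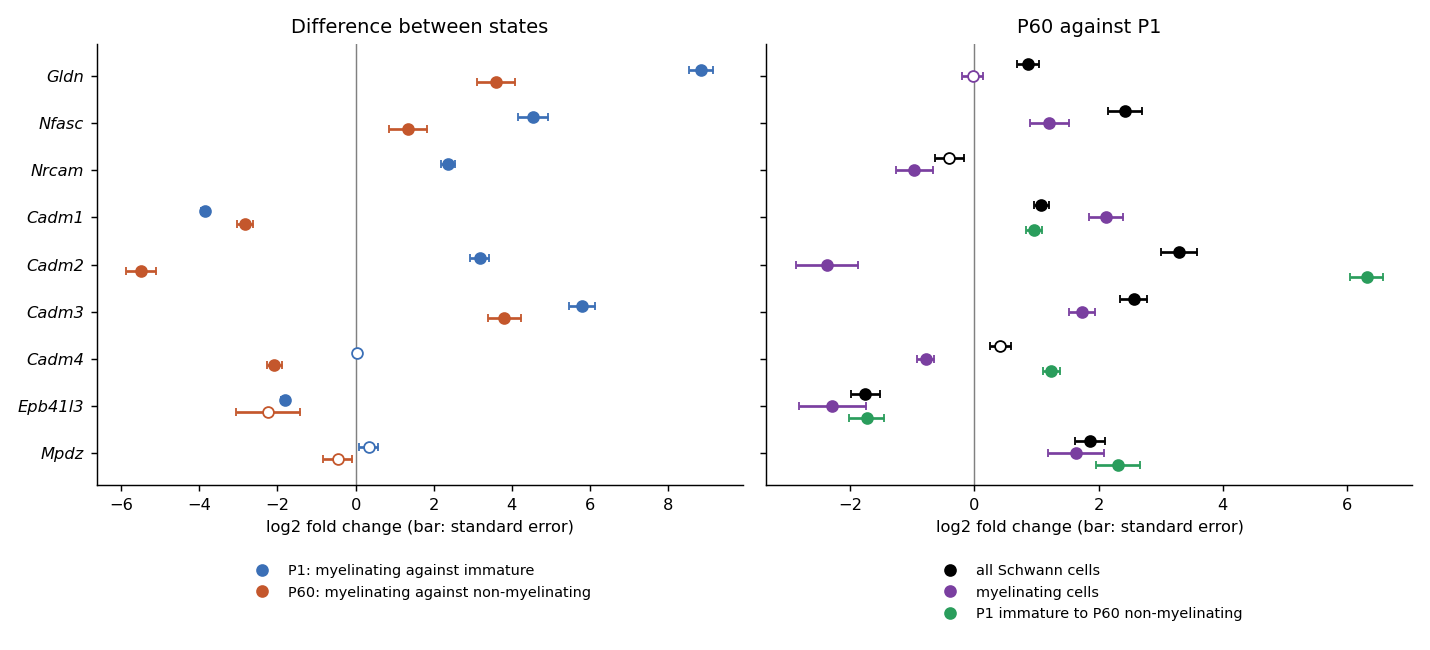
Log2 fold changes of the 9 genes between Schwann states at each age (left) and from P1 to P60 (right), with bars of 1 SE and filled points for calls at an adjusted p under 0.05. Between states Cadm2 is at 3.18 at P1 and -5.49 at P60, while Gldn and Cadm3 are above 0 and Cadm1 below 0 at both ages.

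The P1 cluster of 196 Schwann-like cells with high mitochondrial counts, which was outside the states, had the nodal genes at or above the level of myelinating cells. Gldn was 242, 197 and 237 CPM there, Nfasc 106, 106 and 63.7, Nrcam 171, 168 and 205, Cadm2 80.7, 80.4 and 77.4, Cadm3 80.7, 84.0 and 77.4 and Cadm1 20.2, 25.6 and 9.10. With this cluster added to the myelinating cells, an alternative chosen after seeing the data, Mpdz was called against immature cells (0.62, adjusted p = 0.0179) and no member lost a call between the states.

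The P60 myelinating state was made of a pair of sub-clusters whose Cadm levels differed. They were set apart after their values were seen, so the comparison is a description without a test. The 85 cells led by Emid1 had Cadm1 at 281, 234 and 149.8 CPM, Cadm3 at 59.2, 82.1 and 104 and Cadm4 at 73.9, 70.3 and 92.2. The 62 cells led by Spp1, with the immune genes H2-DMa, Lyz1 and Cd74 among their leading genes, had Cadm1 at 0, 17.6 and 25.0, Cadm3 at 435, 405 and 399.9 and Cadm4 at 422, 546 and 337. None of these ranges overlapped, and Cadm1 ran against Cadm3 and Cadm4. Gldn was 88.7, 176 and 173 CPM in the first and 316, 141 and 150.0 in the second, which overlapped. Immune markers in the Spp1-led cells summed to 2135, 70.5 and 25.0 CPM in the 3 libraries. The Spp1-led cells also had 2 endothelial markers and 1 mural marker raised, and Fabp4 and the adipocyte marker Car3 were among the leading genes of the Emid1-led cells. The part of other cell types in the levels of Cadm1, Cadm3 and Cadm4 was not tested. Mean mitochondrial counts were 3.83% in the Emid1-led and 1.58% in the Spp1-led cells. P1 myelinating cells formed 1 sub-cluster, so no such division could be described there.

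**Figure D3:**
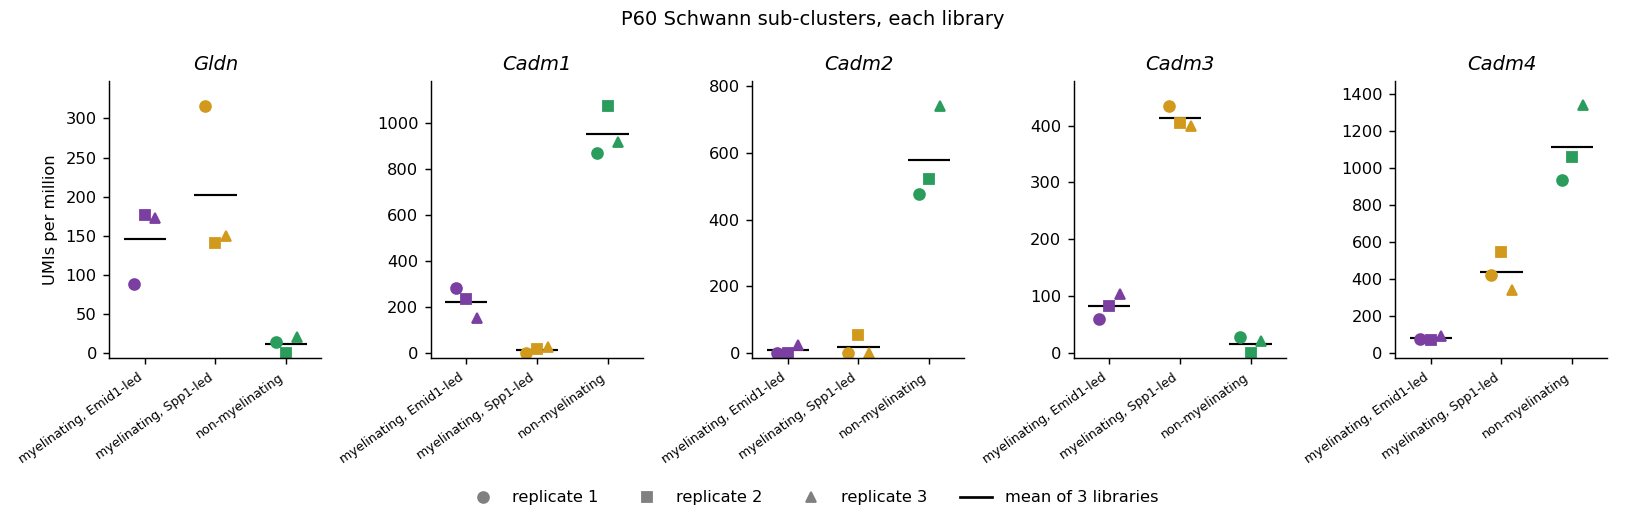
Levels of Gldn and the 4 Cadm genes in the P60 Schwann cells by sub-cluster, as UMIs per 1000000 on linear axes, with 1 point per library and a line at the mean. Cadm1 is at most 25.0 CPM in the Spp1-led cells and at least 867 CPM in the non-myelinating cells, and Cadm3 is at least 399.9 CPM in the Spp1-led cells and at most 104 CPM in the Emid1-led cells.

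Measured per cell, UMIs of 2 members were counted in the same cells, and no pair was tested against how common its genes are. The genes differed in how common they were, so the counts do not rank the pairs. Cadm1 and Cadm4 were common, with 158 P60 cells holding Cadm1 without Gldn and 151 Cadm4 without Cadm3. Cells of at least 1500 UMIs were thinned to 1500, which left all 2902 P1 and 337 of 350 P60 Schwann cells. Among P60 non-myelinating cells 75.8% ± 6.03 had a UMI of Cadm1, 78.4% ± 8.13 of Cadm4 and 54.5% ± 5.89 of Cadm2 (SD, n = 3 libraries), against 0.746%, 0.607% and 0.229% in P60 fibroblasts thinned alike, the level that free RNA could give. The shares before thinning were 88.9%, 89.8% and 68.0%. Among P60 myelinating cells 26.7% ± 8.67 had a UMI of Cadm3 and 19.0% ± 2.63 of Gldn, and 1.86% ± 1.79 of Cadm2. Of the 337 P60 cells, 32 had Gldn and no Cadm2, 87 had Cadm2 and no Gldn, and 3 had both. For Cadm2 and Cadm3, 87 had Cadm2 alone, 42 Cadm3 alone and 3 both. Gldn was found with Cadm1 in 11 cells and without it in 24, and Cadm3 with Cadm4 in 16 and without it in 29. Gldn and Cadm3 met in 8 cells, with 27 holding Gldn alone and 37 Cadm3 alone. For Gldn and Nrcam, 1 cell had both, 34 Gldn alone and 12 Nrcam alone. At P1 Cadm3 and Cadm4 met in 28 cells, and 31 had Cadm3 without Cadm4. Gldn and Nrcam met in 20 P1 cells, with 148 holding Gldn alone and 150 Nrcam alone. At P1, where both genes were highest in myelinating cells, 10 of 2902 cells had Gldn and Cadm2, 158 Gldn alone and 79 Cadm2 alone. At 1500 UMIs a cell without a UMI may still express the gene.

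Over all Schwann cells, 7 of 9 members were called between the ages, beside 38.6% of all genes tested, with 6 higher at P60 and Epb41l3 lower. Cadm2 rose most, from 18.7, 23.9 and 24.1 CPM to 136, 149 and 357, by 3.30 ± 0.29 (adjusted p = 4.45e-07). P60 replicate 3 was the highest, as it was for Cadm4, and without it the rise of Cadm2 was 2.54. Cadm3 rose from 16.8, 24.9 and 21.6 to 164, 109.9 and 127 (2.56 ± 0.22, adjusted p = 4.21e-07), Cadm1 from 242, 228 and 240.2 to 448, 581 and 546 (1.08 ± 0.12, adjusted p = 4.62e-06), and Mpdz from 20.1, 21.1 and 16.1 to 76.0, 60.3 and 80.7 (1.87 ± 0.24, adjusted p = 2.12e-05). Epb41l3 went from 123, 123 and 112 to 24.0, 28.4 and 51.4 (-1.76 ± 0.23, adjusted p = 2.49e-05). The share of thinned cells with a UMI moved the same way for these genes, by 21.1 points for Cadm2, 20.1 for Cadm1, 10.9 for Cadm3, 8.35 for Mpdz and -12.8 for Epb41l3, each without overlap of the libraries (two-sided exact permutation p = 0.1, which is the lowest value that 3 against 3 libraries can give). Immune markers summed to 70.9 to 748 CPM in P60 Schwann cells against 15.4 to 23.5 at P1, and fibroblast markers to 2293 to 3207 against 4608 to 4921; their part in the age differences was not tested. The median change of the 9 genes was 1.08, against 0.01 over all genes.

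Outside the Schwann lineage most members were at low levels, with exceptions for Cadm1, Cadm3, Epb41l3 and Mpdz. Gldn reached at most 8.20 CPM in any library of fibroblasts, endothelial, mural and immune cells, Nfasc at most 3.09, Nrcam at most 4.33 and Cadm2 at most 8.20. At P1 Schwann cells exceeded fibroblasts in 8 of 9 members and Mpdz was lower (-0.29 ± 0.10, adjusted p = 0.00659), beside 74.9% of genes called. The smallest of these differences did not hold under every setting. That of Epb41l3 lost its call with DESeq2 (adjusted p = 0.219), without P1 replicate 2 (0.0875) and when cells were scaled to 100000 before clustering (0.0656), and that of Mpdz with DESeq2 (0.0771), without P1 replicate 3 (0.268) and with the high mitochondrial cluster included (0.0571). They exceeded endothelial cells in 8 (69.8% of genes called), mural cells in 8 (53.6%) and immune cells in all 9 (70.1%). The member not called against endothelial and mural cells was Mpdz, at 20.1, 21.1 and 16.1 CPM in Schwann, 20.4, 24.7 and 22.3 in endothelial and 16.2, 16.4 and 23.9 in mural cells. At P60 Schwann cells exceeded fibroblasts in 8 of 9 members (36.2% of genes called) and endothelial (41.1%), mural (32.8%) and immune cells (44.3%) in all 9. Against fibroblasts, Cadm3 was not called without the library block (adjusted p = 0.107), nor Mpdz without P60 replicate 1 (adjusted p = 0.0521). Epb41l3 against P60 fibroblasts was the exception, at 24.0, 28.4 and 51.4 CPM against 42.1, 42.1 and 45.0 (-0.42 ± 0.25, adjusted p = 0.205).

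Among the other classes, endothelial cells carried Cadm1 and fibroblasts Cadm3 and Epb41l3. Endothelial Cadm1 rose from 31.5, 23.1 and 26.4 CPM at P1 to 122, 128 and 113 at P60 (2.18 ± 0.15, adjusted p = 5.69e-07), and endothelial Cadm3 from 2.21, 3.08 and 2.54 to 20.9, 15.6 and 15.1 (2.70 ± 0.30, adjusted p = 2.61e-05). These were the 2 calls among 4 members tested, beside 40.0% of genes. In immune cells 3 of 4 tested members were called beside 37.5%, with Cadm1 lower, at 40.5, 46.8 and 36.8 CPM and then 17.2, 21.9 and 16.8 (-1.09 ± 0.19, adjusted p = 0.000925), Epb41l3 lower and Cadm3 higher. Mural cells gave 0 calls by edgeR and 0 by DESeq2, and 0 at an unadjusted p under 0.05, for the 1 member tested, Mpdz (0.60 ± 0.35, unadjusted p = 0.115), beside 33.0%. Without P60 replicate 3, 4 members passed the filter and 2 were called, beside 3167 genes called in all, against 2795 with every library.

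Fibroblast Cadm3 rose from 13.7, 12.9 and 13.3 to 91.4, 77.9 and 64.0 CPM (2.56 ± 0.15, adjusted p = 1.12e-06), with separate ranges at a level between those of endothelial and Schwann cells. Epb41l3 went the other way, from 94.9, 96.9 and 106 to 42.1, 42.1 and 45.0 (-1.20 ± 0.09, adjusted p = 5.87e-06). Of 8 members tested in fibroblasts 5 were called, 3 higher (Nfasc, Cadm3, Mpdz) and 2 lower (Cadm4, Epb41l3), beside 59.8% of genes. Epineurial fibroblasts held Cadm3 at 57.4, 50.9 and 51.9 CPM at P1 and 209, 199 and 153 at P60. Endoneurial fibroblasts held 1.75, 0.777 and 0.845 and then 3.46, 4.27 and 5.22, and the levels of the other fibroblasts are not given here. At P60 the epineurial level thus overlapped that of all Schwann cells. In epineurial fibroblasts all 5 tested members were called, 2 higher and 3 lower, beside 44.6% of genes. Of these, Cadm1 went from -1.94 to -0.39 with cells scaled to 100000 (adjusted p = 0.351) and to -0.95 without the highest Scrublet scores (adjusted p = 0.0506), and Mpdz was not called without P1 replicate 2 (adjusted p = 0.0895). In endoneurial fibroblasts 3 of 3 were called, 2 higher (Cadm4, Mpdz) and 1 lower (Epb41l3), beside 46.2%. Perineurial fibroblasts had the highest Epb41l3 of the 3 subtypes at P1, at 164, 156 and 176 CPM, and it fell to 57.4, 52.1 and 55.6 (log2 change -1.57 ± 0.12, adjusted p = 2.93e-07). There 2 of 5 tested members were called, both lower, beside 54.0%, and the second, Cadm4, was not called without P1 replicate 3 (adjusted p = 0.183) or P60 replicate 1 (adjusted p = 0.0583).

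**Figure D4:**
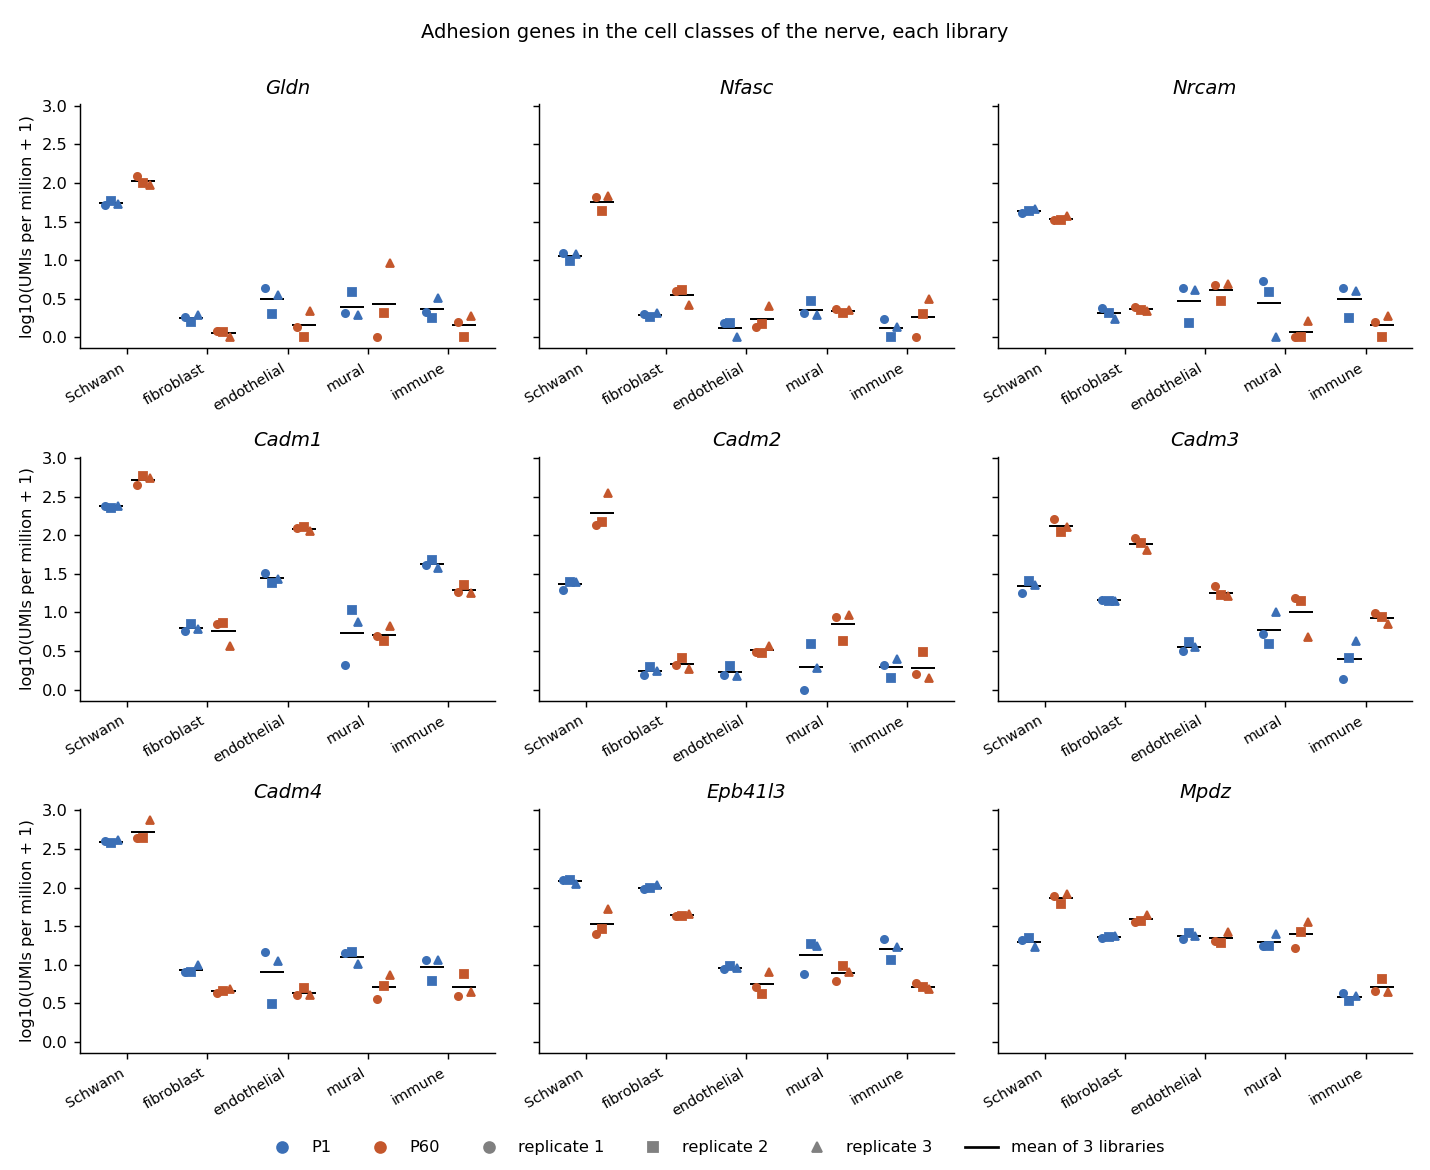
Levels of the 9 genes in the 5 cell classes at P1 and P60, as log10 of UMIs per 1000000 plus 1, with 1 point per library and a line at the mean of 3 libraries. Schwann cells lead for Gldn, Nfasc, Nrcam, Cadm2 and Cadm4 at both ages, endothelial Cadm1 is higher at P60, and fibroblasts hold Cadm3 and Epb41l3.

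The 35 other genes of the junction, listed by their place at the node, paranode, juxtaparanode or as scaffolds, showed which partners moved beside the members. Between P1 myelinating and immature cells 22 of 28 tested were called, 16 higher and 6 lower, with a median of 0.36, beside 43.6% of all genes called. Gjb1, the gap junction connexin of myelin, was higher by 5.19 ± 0.21, the dystroglycan partner Drp2 by 4.80 ± 0.46 and the cadherin Cdh1 by 3.77 ± 0.29, while the contactin Cntn1 was lower (-2.14 ± 0.25), as was the ankyrin Ank3 (-1.78 ± 0.11). At P60 16 of 19 tested were called between myelinating and non-myelinating cells, 11 higher and 5 lower, with a median of 1.21, beside 33.9%. Gjb1 (7.95 ± 0.72), the paranodal claudin Cldn19 (6.45 ± 0.33) and Cdh1 (6.43 ± 1.17) led, and Ank3 (-2.59 ± 0.18) and the potassium channel Kcna2 (-2.03 ± 0.25) were lower. Each of these was called (edgeR, adjusted p under 0.05).

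With age, 20 of 29 tested genes of the list were called in Schwann cells, 13 higher and 7 lower, with a median of 0.36, beside 38.6% of all genes. Drp2 (3.50 ± 0.22), Kcna2 (2.56 ± 0.27) and Ank3 (2.28 ± 0.28) rose, and the scaffold Mpp6 (-2.16 ± 0.18), the microvillar linker Ezr (-1.92 ± 0.22) and the myelin adhesion molecule Mag (-1.05 ± 0.14) fell. From P1 immature to P60 non-myelinating cells 14 of 24 were called, 10 higher and 4 lower, beside 35.4%. Kcna2 (3.48 ± 0.22) and Kcna1 (2.76 ± 0.17) led these, while Cldn19 fell (-3.73 ± 0.44). The difference of the state effects between the ages was called for 7 of 28 genes, beside 8.80% of all genes, with Cldn19 higher (4.13 ± 0.45) and 6 lower, among them Mag (-2.39 ± 0.25) and Kcna2 (-2.29 ± 0.22).

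Finally, the genes whose level was most like that of each member were sought over 14 groups of cells, the named Schwann states and the other classes at both ages, among 6480 genes. The measure was Pearson's r of log2 mean levels; groups of 1 age share their libraries, so no p is given. Gldn was most like Ddn (r = 0.965) and Hepacam (0.958), Nrcam most like Ugt8a (0.985), an enzyme of myelin lipid synthesis, and Cadm4 most like Cmtm5 (0.990), with Sox10, the Schwann lineage factor, also among its nearest 3. Cadm2 was most like Aldoc (0.926), Cadm3 most like Abca2 (0.911), Nfasc most like Acss2 (0.962) and Cadm1 most like Fbxo7 (0.929). Epb41l3 was most like Tmed2 (0.951) and Mpdz most like Kif1b (0.939). No member was among the nearest 3 of another.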

How the data were processed

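Sciatic nerve cells of 3 libraries at P1 and 3 at P60 were analysed. The authors deposited UMI counts per gene and cell barcode, as Cell Ranger 2.0.2 gave them with GRCm38.p5 per the submitters' processing notes, with no normalization and no pooling; the methods name a human build for this step, while the gene identifiers are those of mouse. Counting of strand or isoforms is not given in the sources used here. Barcodes with 500 to 5000 genes were kept. Cells were clustered per age with Seurat 5.3.0 in R 4.3.3 (total of 10000 per cell, 10 components, resolution 0.5 at P1 and 0.4 at P60), and Schwann cells again on their own, each time without the 9 genes and the 35 junction genes. Classes and states were named from marker lists with at least 3 markers raised.

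Counts were summed per library and group and tested with edgeR 4.0.16 (quasi-likelihood, genes passing its filter on low counts, TMM scaling, library as a block within an age), with Benjamini-Hochberg adjustment over all genes tested. Levels are CPM computed from these sums, and 1 UMI is worth 0.682 to 1.18 CPM in the named P1 states and 5.22 to 14.1 CPM in those of P60. Counting intervals are exact at 95% and cover counting error only, as does the limit of 3 counts for a gene with none. Cells were thinned to 1500 UMIs for shares. No library carries a donor or culture label beyond its replicate number, and per the design text each was an independent biological sample. The tests were tried on simulated data with known changes, drawn with the same spread for every gene and no effect of library. That setting is simpler than these data, so no conclusion about the tests is drawn from it. The deviations of same-numbered libraries from their age means correlated at -0.0226, 0.0130 and 0.0371, so the numbers were not taken to pair the ages. The members were given by name, and the members and lists were chosen with earlier results of these data known. Not every member is named in each comparison, and from the junction list some of the called genes with large changes are named. Alternatives included DESeq2 1.42.0, other scaling, no filter, leaving out each library, other clusterings and marker-based states, cells with at most 10% mitochondrial counts, and doublet scores from Scrublet in scanpy 1.11.5.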

Additional observations from a re-analysis of the deposited data

Results flagged for a closer look

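For 5 of the 9 genes the difference between myelinating cells and the other named Schwann state was called unlike between P60 and P1. The test was of the difference itself (edgeR interaction term, adjusted over all genes), which called 8.80% of all genes tested. Cadm2 and Cadm4 kept their call under all 17 alternatives. Without P60 replicate 3, Gldn (adjusted p = 0.439) and Nfasc (0.0622) were not called. With states from summed marker levels, Nfasc (0.191) and Cadm1 (0.724) were not. The value is the log2 difference of P60 myelinating against non-myelinating cells minus that of P1 myelinating against immature cells. It was -8.62 for Cadm2, where the P1 difference of 3.18 and the P60 difference of -5.49 point opposite ways in all 3 libraries of each age. It was -2.03 for Cadm4, with 0.04 at P1 and -2.08 at P60. It was -4.79 for Gldn, with 8.84 at P1, where the immature cells held 1 UMI, and 3.60 at P60. It was -2.98 for Nfasc, with 4.54 and 1.34. It was 1.14 for Cadm1, with -3.86 and -2.83. The immature state of P1 and the non-myelinating state of P60 are not one cell type, and the part of that in these values was not tested.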

How the results depend on the processing

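Of 2576 member values under the alternatives, 2485 kept their direction and side of the threshold, 32 kept only the direction and lost the call, 24 gained a call and 35 changed sign. Where not said otherwise below, the cause was not tested. The count of members called between promyelinating and immature cells was 3 with DESeq2 and 3 without P1 replicate 2 in place of 5. It lay between 3 and 5 over the libraries left out. Over all genes 1223 with DESeq2 and 1869 without P1 replicate 2 were called, in place of 2536. Without a filter on low counts, which lets more members be tested, all 9 entered. The age calls were then 1 in mural cells, 5 in immune cells, 5 in endoneurial and 5 in perineurial fibroblasts. From immature to non-myelinating cells 8 were called. Over all genes 3917, 4990, 5931, 7439 and 2962 were called, in this order, in place of 2795, 3852, 4985, 6247 and 2213. Leaving out P1 replicate 3 gave 5 calls among 7 members tested with age in myelinating cells, beside 1117 genes called in all. Without P60 replicate 1 it was 1 of 5 in perineurial fibroblasts, beside 5830 genes. Without P60 replicate 3, 2 of 4 were called in mural cells (3167 genes in all) and 5 of 5 in endoneurial fibroblasts (5330 genes). The difference of the state effects was then called for 3 of 9 (454 genes). The last count was also 3 with states from summed marker levels, beside 514 genes in all. The calls over all genes moved as well, so these counts carry no weight of their own about the members.

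With the replicate number as a block the age calls were 5 of 5 tested in endoneurial fibroblasts, in place of 3 of 3. They were 7 of 9 in Schwann cells and 8 of 9 in myelinating cells, and no other count moved by over 1.5 times. Over all genes 5038, 3670 and 1653 were called, in this order, in place of 4985, 4303 and 1832. Same-numbered libraries shared only a number.

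Most sign changes were of differences near 0 that were not called, given here as log2 values with the range over the libraries left out. Cadm4 between P1 myelinating and immature cells was -0.2174 with library size alone, -0.01751 with all variable genes, -0.0122 with clustering seed 2, -0.03513 at a total of 100000, -0.009205 with states from summed marker levels and -0.08231 to 0.1182 without 1 library. Mpdz between P1 Schwann and mural cells was -0.0005352 with library size alone and -0.1553 to 0.3749 without 1 library. Gldn with age in myelinating cells was 0.06004 at a total of 100000, 0.2157 with states from summed marker levels and -0.2642 to 0.1243 without 1 library. Cadm1 with age in fibroblasts was 0.09356 with at most 10% mitochondrial counts, 0.4042 without the highest Scrublet scores, 0.2382 at a total of 100000 and -0.2293 to 0.2624 without 1 library. In perineurial fibroblasts Cadm1, Cadm3 and Mpdz with age were -0.3812, -0.2192 and -0.05778 at a total of 100000, Cadm3 was -0.5624 without the highest Scrublet scores, and without 1 library Cadm1 ranged from -0.03317 to 0.7409 and Mpdz from -0.03427 to 0.223. Mpdz with age in endothelial cells was -0.2242 to 0.01642 without 1 library. From immature to promyelinating cells Nfasc was 0.954 with states from summed marker levels and -2.108 to 0.1786 without 1 library. Cadm2 in that step was 0.06515 with clustering seed 2 and 1.282, then called (adjusted p = 2.62e-05), with states from summed marker levels. Epb41l3 between myelinating and promyelinating cells, called in the report, was 0.04184 with clustering seed 2 and 0.08911 with states from summed marker levels. The difference of the state effects was -0.9158 to 0.2372 for Epb41l3 and -0.4411 to 5.603 for Nrcam without 1 library, and -1.457 for Nrcam with states from summed marker levels. The age differences in the share of Schwann cells with a UMI, not thinned, were -3.155 points for Cadm1 and -25.04 for Cadm4, where P60 cells had fewer UMIs.

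At a total of 100000 no sub-cluster took the promyelinating name, so that setting gave no value for its comparisons. The P60 states rest on 70846 to 191495 UMIs per library, so a level of a few UMIs there was not resolved, and with 3 libraries per age an exact test cannot go below p = 0.1.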
